A study of Mus musculus with 9 samples.

Results

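The inflammatory CC chemokine genes, 8 in number, were followed across resting, LPS-stimulated and IL-4-stimulated mouse microglia, and were chosen by symbol from the rows of the deposited table. They were Ccl2, Ccl3, Ccl4, Ccl5, Ccl6, Ccl7, Ccl9 and Ccl12, and each of the 8 had 1 row among the 21212 rows of the table. The cells were primary microglia from the brains of newborn (P0-P1) CD1 pups, pooled within a litter, grown with M-CSF and GM-CSF, separated on a Percoll gradient and kept overnight in serum-free medium. One group received LPS, the bacterial cell wall product that activates TLR4, at 100 ng/ml, and another received IL-4, a cytokine of type 2 immunity, at 20 ng/ml. The third group received PBS, the vehicle, and all groups were collected after 4 hours. RNA was measured on Affymetrix exon arrays with 3 arrays per group, 9 in all. Neither the labels nor the methods say that the 3 arrays of a group came from separate litters. The p-values therefore set a group difference against the spread among these arrays, and that spread may be technical.

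CC chemokines are small secreted proteins that draw leukocytes along a gradient through G protein-coupled receptors. In the brain, microglia and astrocytes are the main local sources during inflammation, and the ligands of the receptor CCR2 are known for recruiting blood monocytes. Ccl2, Ccl7 and the mouse-specific Ccl12 are such CCR2 ligands. Ccl3, Ccl4 and Ccl5 attract monocytes, macrophages and T cells, and their transcription is a textbook response to NF-kappaB. Ccl6 and Ccl9 are rodent chemokines that bind CCR1 and are made by many myeloid cells without stimulation.

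Promoter sequence is shown for the 4 members found in the RefSeq table used here, which differed widely in their response. Ccl12 rose with both stimuli, Ccl3 and Ccl9 rose with LPS from a high resting level and were not called with IL-4, and Ccl6 was not called in any comparison. Each line gives the 150 bases before the annotated start site, 5′ to 3′ on the strand of the gene, in build GRCm38.p6. The windows lie at chr11:82101695-82101844 (plus strand) for Ccl12, chr11:83649379-83649528 (minus strand) for Ccl3, chr11:83578637-83578786 (minus strand) for Ccl9 and chr11:83593088-83593237 (minus strand) for Ccl6. Capitals mark a match to the AP-1 motif and a match to the kappaB motif, in that order.
Ccl12: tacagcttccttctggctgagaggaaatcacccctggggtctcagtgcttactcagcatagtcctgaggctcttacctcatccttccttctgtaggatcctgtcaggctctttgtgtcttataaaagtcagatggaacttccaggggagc
Ccl3: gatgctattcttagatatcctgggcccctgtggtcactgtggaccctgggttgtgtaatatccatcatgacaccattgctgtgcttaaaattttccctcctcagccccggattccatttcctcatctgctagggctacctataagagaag
Ccl9: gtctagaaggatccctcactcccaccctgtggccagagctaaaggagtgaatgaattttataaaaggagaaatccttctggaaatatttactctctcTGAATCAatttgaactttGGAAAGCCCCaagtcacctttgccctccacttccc
Ccl6: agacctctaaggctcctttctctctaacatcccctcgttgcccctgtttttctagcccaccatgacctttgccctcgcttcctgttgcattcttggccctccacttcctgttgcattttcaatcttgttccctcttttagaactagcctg

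In these 4 promoters, searched over 300 bases on both strands (250 before the start site and 50 after it), only Ccl9 held a kappaB match, on the opposite strand to the one printed, and only Ccl9 held an AP-1 match (TGANTCA). The kappaB motif occurred in 4.51% of the 32851 promoters of the table and the AP-1 motif in 7.81%. No match was found for the interferon response core (GAAA, 2 free bases and GAAA again, in 3.44% of promoters), the STAT6 motif (TTC, 4 free bases and GAA, in 6.95%) or the shorter STAT motif (the same with 3 free bases, in 8.30%). The matches are descriptions of these letters in this window. Ccl12, Ccl3 and Ccl6 held none of the 5 motifs in this window, and a link between motifs and response was not tested.

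The arrays were alike in range, with medians of 7.20 to 7.39 and maxima of 12.97 to 13.06 on the log2 scale of the deposited values. Microglial markers had list means of 9.15 to 9.46 on the LPS arrays. These were 9.75 to 9.85 on the IL-4 arrays and 9.47 to 10.15 on the PBS arrays. Of the 11 microglial markers measured, 10 lay above the median of all values. Astrocyte markers were also well above it on every array (9 of 10 genes, list means of 9.84 to 10.32 on the LPS arrays, 10.13 to 10.15 on the IL-4 arrays and 9.90 to 10.46 on the PBS arrays). By the mean of each group, only 2 of 10 fibroblast markers but all 8 neutrophil markers and all 9 T and NK cell markers lay below the median. The neutrophil marker S100a8 was nevertheless above it on LPS replicates 1 and 2 (7.46 and 7.43). Replicate 3 of LPS and replicate 3 of PBS stood apart, since their mean of 12 motile cilia markers was 1.61 and 1.70 above that of replicates 1 and 2 of the same group. Their mean of 10 oligodendrocyte lineage markers was 0.98 higher in each of the 2 groups. For microglial markers the same difference was 0.30 with LPS and 0.63 with PBS, and for astrocyte markers 0.47 and 0.55. For endothelial markers it was -0.41 and -0.33. Over all rows, limma called 8014 rows for LPS against PBS and 1146 for IL-4 against PBS. Subtracting each array's median shifted the median change of all rows by 0.11 for LPS against PBS and by 0.15 for LPS against IL-4. It also changed the share of calls that were higher, to 63.9% against 40.8% with the deposited values for LPS against PBS, to 50.3% against 62.0% for IL-4 against PBS, and to 72.1% against 44.8% for LPS against IL-4.

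LPS raised 7 of the 8 chemokine genes and lowered none, at an adjusted p under 0.05 (limma over all 9 arrays, Benjamini-Hochberg over all rows). Of all rows, 15.4% were called higher by LPS and 22.4% lower. The members fell into a group that rose strongly (Ccl2, Ccl4, Ccl5, Ccl7 and Ccl12, by 3.77 to 4.89 on the log2 scale), a pair that rose little (Ccl3 and Ccl9) and Ccl6, which was not called. The median change of the 8 members was 3.87, beside 0.01 over all rows. IL-4 raised 3 of the 8, all of them CCR2 ligands, and lowered none, while 3.35% of all rows were called higher by IL-4 and 2.05% lower. The median change of the members with IL-4 was 0.39, beside -0.02 over all rows. Both comparisons use the same PBS arrays, so their values are not independent of each other.

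**Figure D1:**
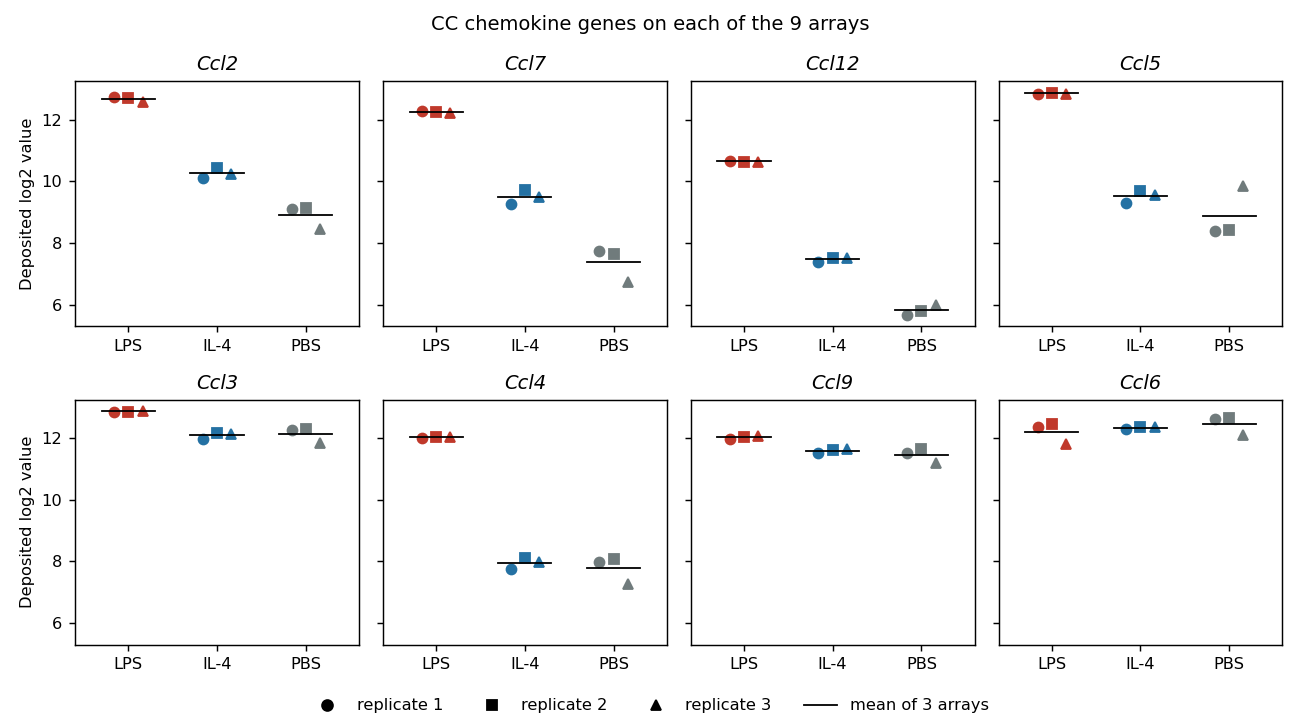
Deposited log2 value (vertical axis) of each chemokine gene on the 9 arrays, in the groups LPS, IL-4 and PBS, with 1 symbol per replicate and a line at the mean of 3 arrays. Ccl2, Ccl7 and Ccl12 form 3 separate steps, and Ccl4 and Ccl5 are far higher on the LPS arrays than on any other array. Ccl3, Ccl9 and Ccl6 lie above 11 on all 9 arrays.

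The CCR2 ligands came in 3 steps, highest with LPS, lower with IL-4 and lowest with PBS. Ccl2, the main monocyte attractant of the family, had log2 values of 12.74, 12.70 and 12.56 on the LPS arrays, 10.10, 10.43 and 10.23 on the IL-4 arrays, and 9.10, 9.12 and 8.46 on the PBS arrays. The 3 groups did not overlap, and PBS replicate 3 was the lowest array of all. LPS raised Ccl2 by 3.77 ± 0.17 (SE, n = 3 arrays per group), or 13.7-fold, with an adjusted p of 7.55e-07 (limma). IL-4 raised it by 1.36 ± 0.17, or 2.57-fold, with an adjusted p of 0.0034 (limma). Between the stimuli, Ccl2 was 2.41 ± 0.17 higher with LPS than with IL-4.

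Ccl7, which also binds other CC receptors beside CCR2, had values of 12.28, 12.26 and 12.21 with LPS, 9.26, 9.73 and 9.51 with IL-4, and 7.72, 7.64 and 6.73 with PBS. No array of one group reached another group, and PBS replicate 3 was again the lowest. The LPS change was 4.89 ± 0.24, or 29.6-fold, and 20 of the 21212 rows rose more (adjusted p = 1.20e-06, limma). Without PBS replicate 3 it was 4.57, below the 4.92 of Ccl12 in the same fit. The IL-4 change was 2.13 ± 0.24, or 4.38-fold, and 17 rows rose more (adjusted p = 0.0020, limma). With LPS the gene was 2.75 ± 0.24 higher than with IL-4.

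Ccl12, a CCR2 ligand of the mouse, had the most even values. They were 10.66, 10.64 and 10.63 with LPS, 7.38, 7.52 and 7.52 with IL-4, and 5.67, 5.79 and 5.99 with PBS. The steps between the groups were many times the spread within them. LPS raised it by 4.83 ± 0.08, or 28.4-fold (adjusted p = 6.12e-09, limma), and IL-4 by 1.66 ± 0.08, or 3.16-fold (adjusted p = 3.39e-05, limma). Its IL-4 change was the only one of the 8 members that also passed when each row was tested alone on the 6 arrays compared, with no sharing of variance between rows, as the methods describe. Ccl2 and Ccl7 missed the threshold there, with adjusted p of 0.0809 and 0.0733.

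Markers of other cells moved with IL-4 as well. Of 10 fibroblast markers, 5 were called higher by IL-4 and none lower, with list means of 9.35 to 9.38 on the IL-4 arrays and 8.89 to 8.94 on the PBS arrays. Of 8 endothelial markers, 3 were higher, with list means of 7.04 to 7.14 on the IL-4 arrays and 6.40 to 6.75 on the PBS arrays. Beside these, IL-4 gave 3.35% of all rows called higher and 2.05% lower. No astrocyte marker of 10 and no cilia marker of 12 was called for IL-4 against PBS, although the cilia list means were 7.95 to 8.26 on the IL-4 arrays and 6.91 to 8.65 on the PBS arrays. The part of these cells in the rise of Ccl2, Ccl7 and Ccl12 was not tested. In bulk RNA, a change in the number of cells of a type and a change in RNA per cell cannot be told apart.

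Ccl4 and Ccl5 responded to LPS from a middle or higher resting level. On the PBS arrays their percentiles were 48.4 to 61.0 for Ccl4 and 66.4 to 88.5 for Ccl5. Ccl4 had values of 12.02, 12.04 and 12.05 with LPS, 7.75, 8.10 and 7.98 with IL-4, and 7.99, 8.07 and 7.26 with PBS. The LPS arrays stood far above the other 6, and the IL-4 and PBS arrays overlapped. LPS raised Ccl4 by 4.26 ± 0.20, or 19.2-fold (adjusted p = 7.58e-07, limma). The IL-4 change was 0.17, with a 95% interval of -0.28 to 0.62 (adjusted p = 0.657, limma). Between the stimuli the difference was 4.09 ± 0.20, LPS being higher, the largest of the 8 members in that comparison.

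Ccl5, also called RANTES, had values of 12.85, 12.86 and 12.85 with LPS, 9.29, 9.69 and 9.54 with IL-4, and 8.38, 8.43 and 9.85 with PBS. The LPS arrays agreed within 0.014, whereas PBS replicate 3 lay above all IL-4 arrays and 1.45 above the mean of PBS replicates 1 and 2. LPS raised Ccl5 by 3.96 ± 0.35, or 15.6-fold (adjusted p = 3.45e-05, limma), and by 4.44 when PBS replicate 3 was left out. The IL-4 change was 0.62 with a 95% interval of -0.17 to 1.41 and was not called (adjusted p = 0.352, limma). Without PBS replicate 3 it was 1.10 and called (adjusted p = 0.0011, limma), so this array decided the call.

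PBS replicate 3 differed from the other PBS arrays in 2 directions within the family. It was lower than the mean of replicates 1 and 2 by 0.65 for Ccl2, 0.45 for Ccl3, 0.77 for Ccl4, 0.53 for Ccl6, 0.95 for Ccl7 and 0.38 for Ccl9. It was higher by 1.45 for Ccl5 and by 0.26 for Ccl12. Irf7, an interferon-induced transcription factor, was 0.96 higher on the same array. The T and NK cell markers, of cells that also make Ccl5, had a list mean of 4.80 on this array, against 5.00 and 4.90 on PBS replicates 1 and 2. All 9 of these markers lay below the median of all values (7.31) by their PBS means, so these differences were not read as cell numbers. The cause of the Ccl5 and Irf7 departures was not tested. On LPS replicate 3 only Ccl6 and Ccl2 departed from replicates 1 and 2 by over 0.1, being lower by 0.61 and 0.16. On IL-4 replicate 3, no member departed by more than 0.067. The part of the shifts in cilia, oligodendrocyte, astrocyte, microglial and endothelial markers in these departures was not tested.

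Ccl3, Ccl9 and Ccl6 were already near the top of the array at rest. Ccl3, the macrophage inflammatory protein that binds CCR1, had values of 12.86, 12.86 and 12.89 with LPS, 11.98, 12.15 and 12.13 with IL-4, and 12.26, 12.28 and 11.83 with PBS. The LPS arrays lay above all others, and the IL-4 and PBS arrays overlapped. The LPS change was 0.74 ± 0.12, or 1.68-fold (adjusted p = 0.0011, limma), and 1250 rows rose more. The IL-4 change was -0.04, with a 95% interval of -0.30 to 0.23, and LPS exceeded IL-4 by 0.78 ± 0.12 (adjusted p = 7.58e-04, limma).

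Ccl9 had values of 11.97, 12.04 and 12.07 with LPS, 11.53, 11.63 and 11.63 with IL-4, and 11.53, 11.63 and 11.20 with PBS. LPS replicates were again above every other array, by at least 0.34. The LPS change was 0.58 ± 0.10, or 1.49-fold (adjusted p = 0.0024, limma), and the call was lost when each row was tested alone (adjusted p = 0.0509). The IL-4 change was 0.14, with a 95% interval of -0.09 to 0.38. LPS exceeded IL-4 by 0.43 ± 0.10 (adjusted p = 0.0094, limma).

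Ccl6 had values of 12.35, 12.46 and 11.80 with LPS, 12.28, 12.37 and 12.37 with IL-4, and 12.62, 12.66 and 12.11 with PBS. All 3 groups overlapped, and replicate 3 was the lowest array with LPS and with PBS. The LPS change was -0.26 ± 0.19, with a 95% interval of -0.70 to 0.18 (adjusted p = 0.329, limma). Each LPS array was nevertheless below the PBS array of the same number, by 0.28, 0.19 and 0.32. When same-numbered LPS and PBS arrays were blocked as pairs, the same change of -0.26 was called lower (adjusted p = 0.0102, limma). The IL-4 change was -0.12, with a 95% interval of -0.56 to 0.32, and that of LPS against IL-4 was -0.14, with a 95% interval of -0.58 to 0.30.

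LPS against IL-4 gave 7 members called higher with LPS and none lower, beside 21.0% of all rows called higher and 25.9% lower. These 7 were the genes called for LPS against PBS. The median difference of the 8 members was 2.58, beside 0.03 over all rows.

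**Figure D2:**
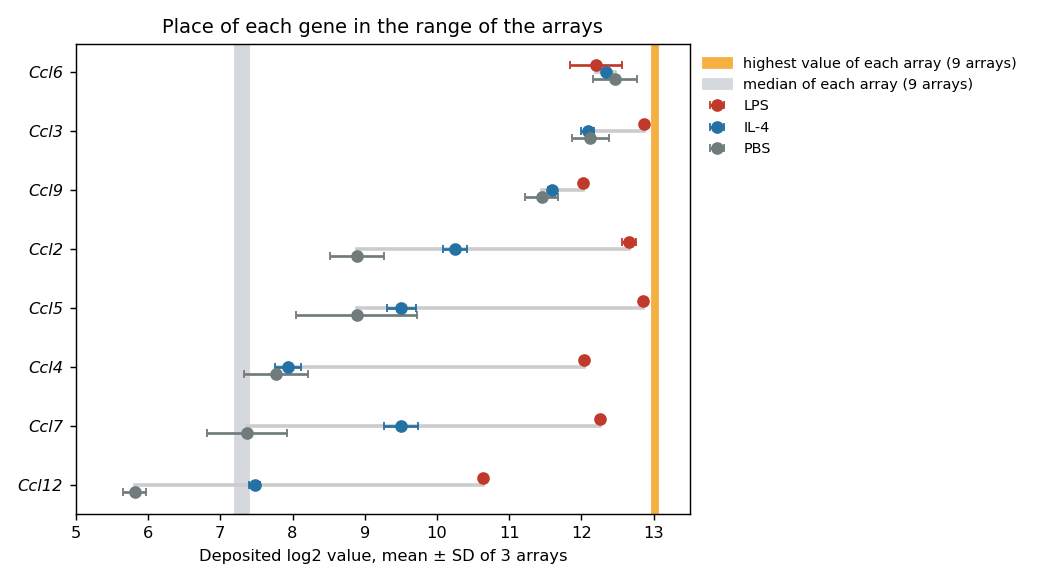
Mean log2 value of each gene (horizontal axis, bars are SD of 3 arrays) with LPS, IL-4 and PBS, ordered by the PBS mean. Vertical bands mark the medians (7.20 to 7.39) and the highest values (12.97 to 13.06) of the 9 arrays. With LPS 7 of the 8 genes lie at 12.03 or above, and Ccl12 lies at 10.64.

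The family lay in a narrower range on the LPS arrays than on the others. The highest and lowest member means were 2.23 apart with LPS, 4.87 apart with IL-4 and 6.65 apart with PBS. Ccl12 was the lowest in each group, and without it the spans were 0.84, 4.40 and 5.10. Because probes of different genes differ in brightness and the values are not per length, these are places in the range of the array and not amounts of mRNA. The number of members in the top 1.0% of the rows of the array was 7 with LPS, 2 with IL-4 and 2 with PBS, and Ccl3 and Ccl6 were the pair in both of the last groups.

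At the top of the LPS arrays, Ccl3 had only 3 to 7 rows above it and Ccl5 4 to 7. Both were 0.11 to 0.22 below the highest value of their array, and whether their probes could still respond there was not tested, so the LPS changes of Ccl3 and Ccl5 may be lower bounds. Ccl2 had 14 to 29 rows above it, Ccl6 45 to 230, Ccl7 65 to 83, Ccl9 123 to 169 and Ccl4 126 to 153. Ccl12 was further down, with 1207 to 1276 rows above it. On the PBS arrays the same genes were spread out, with 21 to 104 rows above Ccl6, 75 to 203 above Ccl3, 284 to 520 above Ccl9 and 14704 to 15923 above Ccl12. With IL-4, Ccl2 had 1386 to 1938 rows above it and Ccl7 2824 to 4202, against 4681 to 6934 and 9372 to 12487 with PBS.

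The spread between the LPS arrays was small for several members. The SD was 0.008 for Ccl5, 0.013 for Ccl12, 0.017 for Ccl4 and 0.018 for Ccl3, and between 1.09% and 3.58% of all rows had a smaller SD on these arrays. On the PBS arrays the SD of Ccl5 was 0.84, larger than that of nearly all rows. Across the 8 members, the mean PBS value and the LPS change correlated at -0.959 (Pearson). The PBS values enter both quantities, and the 8 points come from the same 6 arrays.

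**Figure D3:**
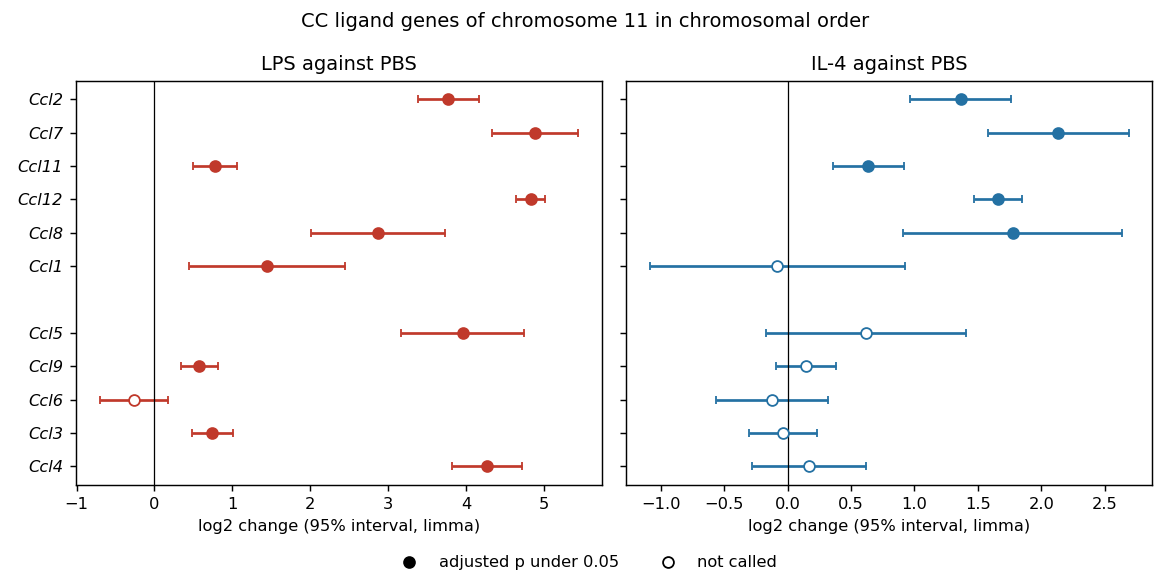
Change in log2 value (horizontal axis, point with 95% interval from limma) of the 11 CC ligand genes of chromosome 11, from top to bottom in chromosomal order, for LPS against PBS and for IL-4 against PBS. A gap separates the group that starts with Ccl2 from the group that starts with Ccl5. With IL-4, the 5 filled points, called at an adjusted p under 0.05, are all in the upper group.

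All 8 members lie on chromosome 11, in 2 groups that the RefSeq annotation separates by 51 other genes. The first runs Ccl2, Ccl7, Ccl11, Ccl12, Ccl8 and Ccl1, and the second Ccl5, Ccl9, Ccl6, Ccl3 and Ccl4. IL-4 raised 5 of the 6 genes of the first group and none of the 5 genes of the second. With each row tested alone, the calls of Ccl2, Ccl7 and Ccl11 were lost (adjusted p of 0.0809, 0.0733 and 0.110). Those of Ccl12 and Ccl8 were kept there (adjusted p of 0.0137 and 0.0435). The calls of Ccl8 and Ccl11 were also lost when some single arrays were left out. Within the first group the IL-4 changes were 1.36, 2.13, 0.64, 1.66 and 1.77 for Ccl2, Ccl7, Ccl11, Ccl12 and Ccl8, and -0.08 for Ccl1. LPS raised 6 of 6 in the first group and 4 of 5 in the second. Of all rows, 3.35% were called higher by IL-4 and 15.4% by LPS. This grouping was seen after the values were known and was given no test. Without PBS replicate 3, Ccl5 of the second group was also called higher by IL-4, and without LPS replicate 3 and PBS replicate 3 Ccl6 was called lower (-0.30, adjusted p = 0.0061, limma). Annotated intervals of Ccl3 and Ccl4 overlap, and members of a group resemble each other in sequence, and cross-hybridisation between them was not tested.

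Of 13 other CC ligands listed, 10 were measured. LPS raised 7 and lowered none, with a median change of 1.11, and IL-4 raised 3 and lowered none, with a median of 0.11. The medians of all rows were 0.01 and -0.02. Among all rows, 15.4% were called higher and 22.4% lower by LPS, and 3.35% higher and 2.05% lower by IL-4. Ccl8, a neighbour of Ccl12, had values of 9.55, 9.58 and 8.08 with LPS, 7.87, 7.86 and 8.19 with IL-4, and 5.82, 6.42 and 6.36 with PBS. Both stimulated groups lay above PBS but overlapped each other, and the IL-4 rise was 1.77 ± 0.38 (adjusted p = 0.0325, limma). Ccl11, the eosinophil attractant eotaxin, rose by 0.64 ± 0.12 with IL-4 (adjusted p = 0.0223, limma). Ccl24, another eosinophil attractant, rose by 1.03 ± 0.22 with IL-4 (adjusted p = 0.0317, limma), and its LPS change was 0.18. It was the only ligand of this list called lower with LPS than with IL-4, and it was called higher by LPS without LPS replicate 3 (0.44, adjusted p = 0.0367). These 3 IL-4 calls were near the threshold. That of Ccl8 was lost without any 1 of the IL-4 replicates or of PBS replicates 1 and 2, with changes of 1.58 to 1.88 and adjusted p up to 0.132. That of Ccl24 was lost without the same arrays, with changes of 0.89 to 1.16, and that of Ccl11 without any IL-4 replicate or PBS replicate 2, with changes of 0.55 to 0.65.

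Ccl22 and Ccl17, ligands of CCR4 that are known as products of IL-4-treated macrophages, were called with LPS and not with IL-4 at 4 hours. Ccl22 had values of 9.94, 10.06 and 10.31 with LPS, 7.39, 7.56 and 7.58 with IL-4, and 6.23, 8.11 and 5.85 with PBS. PBS replicate 2 was above all IL-4 arrays, and the IL-4 change was 0.78 with a 95% interval of -0.35 to 1.91. Without PBS replicate 2 it was 1.47 and called (adjusted p = 0.00296, limma), so this array decided the call. For Ccl17, which had 7.58, 9.44 and 6.40 on the PBS arrays, the IL-4 change was 0.11 with a 95% interval of -1.69 to 1.91. LPS raised Ccl22 by 3.37 ± 0.49, Ccl17 by 2.57 ± 0.79 and Ccl20, the CCR6 ligand, by 2.76 ± 0.35. The call of Ccl17 was lost without LPS replicate 1 or 2, IL-4 replicate 2, or PBS replicate 1 or 3, with changes of 1.87 to 2.57, and when each row was tested alone (adjusted p = 0.180). Ccl1 was 1.52 ± 0.44 higher with LPS than with IL-4, and this was not called without LPS replicate 1 or 2 or any IL-4 replicate, with changes of 1.17 to 1.55.

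**Figure D4:**
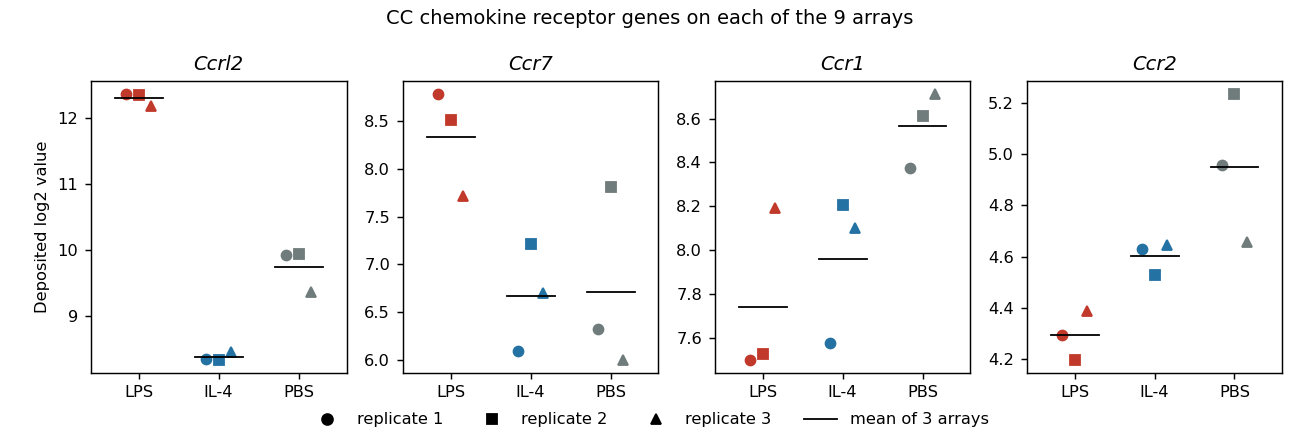
Deposited log2 value (vertical axis, scaled for each gene) of 4 CC chemokine receptor genes on the 9 arrays, with 1 symbol per replicate and a line at the mean of 3 arrays. Ccrl2 is highest with LPS and lowest with IL-4, and Ccr1 and Ccr2 are lower on all LPS arrays than on any PBS array.

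Of 15 CC chemokine receptors listed, 14 were measured, and LPS raised 3 and lowered 2, while IL-4 raised none and lowered 1. Beside the 15.4% of all rows called higher and 22.4% called lower by LPS, these counts were near the background. Ccrl2, an atypical receptor that binds chemerin, had values of 12.36, 12.36 and 12.19 with LPS, 8.34, 8.34 and 8.45 with IL-4, and 9.93, 9.94 and 9.37 with PBS. The groups did not overlap, and the stimuli acted in opposite directions, with a rise of 2.56 ± 0.14 for LPS (adjusted p = 2.52e-06, limma) and a fall with a change of -1.37 ± 0.14 for IL-4 (adjusted p = 0.0014, limma). The IL-4 call was lost when each row was tested alone (adjusted p = 0.0553). Ccrl2 was 3.92 ± 0.14 higher with LPS than with IL-4.

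Ccr1, the receptor of Ccl3, Ccl6 and Ccl9, had values of 7.50, 7.53 and 8.19 with LPS and 8.38, 8.61 and 8.71 with PBS, a change of -0.83 ± 0.22 (adjusted p = 0.0174, limma). The IL-4 arrays lay between 7.58 and 8.20, and the change of -0.60 was not called (adjusted p = 0.169, limma). Ccr2, the receptor of the 3 CCR2 ligands, lay between 4.20 and 4.39 on the LPS arrays and between 4.66 and 5.23 on the PBS arrays, low in the range of every array. Ccr7, the receptor that guides cells to lymph nodes, had values of 8.78, 8.51 and 7.71 with LPS and 6.33, 7.81 and 6.01 with PBS. Its rise of 1.62 ± 0.50 was called (adjusted p = 0.0319, limma) although PBS replicate 2 lay above LPS replicate 3. The call of Ccr7 was lost without LPS replicate 1 or 2, IL-4 replicate 3, or PBS replicate 1 or 3 (changes of 1.26 to 1.62), and that of Ccr1 without LPS replicate 1 or 2 or PBS replicate 2 or 3 (changes of -0.80 to -0.71). Both calls were also lost when each row was tested alone (adjusted p = 0.162 for Ccr7 and 0.0905 for Ccr1). Ccr9, the receptor of Ccl25, rose by 0.95 ± 0.15 with LPS. Ackr1, an atypical receptor that binds many chemokines, had an LPS change of 0.29 that was not called (adjusted p = 0.157, limma). This change was called with the arrays blocked as inferred pairs (adjusted p = 0.0067, limma). The microglial markers of the label also moved with LPS, 1 of 11 being called higher and 7 lower, beside 15.4% and 22.4% of all rows. The part of these markers in the fall of Ccr1 and Ccr2 was not tested.

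Among regulators of chemokine transcription, 22 of 24 listed were measured. LPS raised 18 and lowered 1, with a median change of 1.40, and IL-4 raised 8 and lowered none, with a median of 0.14. Over all rows, the shares called higher and lower were 15.4% and 22.4% for LPS and 3.35% and 2.05% for IL-4. The largest LPS rises were those of Nfkbiz, a nuclear cofactor of NF-kappaB (3.63 ± 0.07), Tnfaip3, a deubiquitinase that restrains NF-kappaB signalling (3.22 ± 0.09), Nfkbie, an inhibitor of NF-kappaB (2.55 ± 0.05), and Irf1, an interferon-regulated transcription factor (2.53 ± 0.09). With IL-4 the largest rises were those of Nfkbie by 0.84 ± 0.05 (adjusted p = 1.19e-04, limma), Nfkbia, an inhibitor of NF-kappaB, by 0.71 ± 0.05 (adjusted p = 1.40e-04, limma) and Tnfaip3 by 0.69 ± 0.09 (adjusted p = 0.0029, limma). The IL-4 call of Tnfaip3 was lost when each row was tested alone (adjusted p = 0.0664). Nfkbib, another inhibitor of NF-kappaB, had an IL-4 change of 0.09 that was not called (adjusted p = 0.664, limma). Junb, an AP-1 subunit, rose by 0.46 ± 0.09 with IL-4, a call lost without any IL-4 replicate or PBS replicate 1 or 2 (changes of 0.40 to 0.49). Irf7 was 3.53 ± 0.26 higher with LPS than with IL-4. For Stat6, the transcription factor downstream of the IL-4 receptor, LPS gave a change of -0.36 that was not called (adjusted p = 0.109, limma). It was called without PBS replicate 3 (-0.49, adjusted p = 0.0402, limma) and with LPS and PBS arrays blocked as inferred pairs (-0.36, adjusted p = 0.0046, limma).

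Of 10 genes for proteins that bind and stabilise or degrade cytokine mRNA, LPS raised 6 and lowered 3, with a median change of 0.14. IL-4 raised 3 and lowered 1, with a median of 0.12. Of all rows, LPS raised 15.4% and lowered 22.4%, and IL-4 raised 3.35% and lowered 2.05%. Zc3h12a, an endonuclease that cuts inflammatory transcripts, rose by 2.40 ± 0.10 with LPS and by 0.69 ± 0.10 with IL-4 (adjusted p = 0.0069, limma), and the IL-4 call was lost when each row was tested alone (adjusted p = 0.0706). Zfp36, which binds AU-rich elements, rose by 2.03 ± 0.09 with LPS and by 0.41 ± 0.09 with IL-4 (adjusted p = 0.0369, limma). Zc3h12c rose by 2.24 ± 0.15 with LPS. Auh, an AU-binding protein, was lower by LPS, with a change of -0.73 ± 0.05, and higher by IL-4, with a change of 0.30 ± 0.05. Zfp36l2 was lower by both stimuli, with a change of -0.60 ± 0.07 for LPS (adjusted p = 1.79e-04, limma) and -0.34 ± 0.07 for IL-4. The IL-4 calls of Zfp36, Auh and Zfp36l2 were each lost without single arrays (6, 4 and 5 of the 9), among them IL-4 replicates 1 and 3 and PBS replicates 1 and 2 for all 3 genes, with adjusted p up to 0.138, 0.0782 and 0.112.

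For each member, the 3 rows with the most similar pattern over the 9 arrays had Pearson correlations of 0.984 to 0.999. For Ccl2 they were Adamts3, Seh1l and Cxcl10, and for Ccl7 Timp1, Adamts3 and Il1rap, so that Adamts3 was near both. For Ccl12 they were Pdgfb, Nfkbie and Tlr1, with Nfkbie being the gene that led the IL-4 rises among the regulators. Ccl4 was most like Lacc1, Idnk and Arrdc4, Ccl5 most like Vcan, Gphn and Ehd3, Ccl3 most like Cmip, Aoah and Pim1, and Ccl9 most like Bcl2a1c, Sh3pxd2b and Acsl5. For Ccl6 the list was Galnt6, Zfp979 and Chaf1b. The points of each correlation are the same 9 arrays in 3 groups, so a shared group difference is enough to give a high value.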

How the data were processed

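The authors deposited 1 table of log2 values for 9 Affymetrix Mouse Exon arrays, summarised per gene with RMA in the affy package (versions not given in the sources used here). RMA subtracts background, quantile-normalises probe intensities over all arrays and fits 1 value per gene, so the top of the range is set alike on every array, and scan-level signals were not used here. The array number limits the precision. Symbols came from the platform annotation, in which 18786 rows had 1 symbol, 6 several and 2420 none, and no name was taken from elsewhere. Groups came from the stimulation label. limma 3.58.1 in R 4.3.3 was fitted to all 9 arrays with a mean per group and eBayes, with 6 residual degrees of freedom, and p-values were adjusted by Benjamini-Hochberg over 21212 rows and called under 0.05. The script was tested on simulated data. Intervals are 95% intervals of limma. Percentiles rank a gene among all rows of its array.

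The members and gene lists were chosen with earlier results of these data known. Named from each list were at most 4 called genes with the largest change and at most 2 uncalled genes with the highest mean per comparison, besides all members. Ccr2, the lower value of Ccl24 with LPS than with IL-4 and the chromosome 11 order were added after values were seen. The pairing check correlated deviations from the group means over all rows. For LPS and PBS, arrays of the same replicate number gave 0.578, 0.651 and 0.800, so the numbers were taken to pair them. LPS replicate 1 with PBS replicate 2 (0.542) and LPS replicate 2 with PBS replicate 1 (0.605) were about as high, so only replicate 3 is set apart and the numbers do not distinguish the first 2 pairs. For IL-4 and PBS they gave 0.339, -0.255 and 0.0752, and for LPS and IL-4 0.289, -0.228 and 0.0593, so those were not paired. Alternatives were Student's t-test, 6 arrays only, other eBayes settings, array weights, 2 other normalizations, a filter leaving out 7070 dim rows, a replicate block, and left-out arrays. Promoters came from RefSeq (GRCm38.p6) and matched 4 of 8 members. Gene order came from the same assembly. Python 3.11.15 and matplotlib 3.10.9 drew the figures.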

Additional observations from a re-analysis of the deposited data

How the results depend on the processing

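Having 3 arrays per group and a spread set partly by PBS replicate 3 limits these comparisons. Each member's change was recomputed under 20 alternatives per comparison, and of 480 values 457 kept direction and call, 5 lost the call, 7 gained it and 11 changed sign without a call. For other named genes the numbers were 1199, 89, 27 and 21 of 1336. The count of members called with LPS against IL-4 stayed at 7. With LPS against PBS it was 6 with Student's t-test, in which Ccl9 was lost, and 8 with the replicate block over 6 arrays and with 7 arrays, which added Ccl6 as lower. With IL-4 against PBS, 1 member (Ccl12) was called with Student's t-test and 1 (Ccl12) with the replicate block over 6 arrays, 5 with array weights and 5 with 7 arrays (leaving out LPS replicate 3 and PBS replicate 3), namely Ccl2, Ccl5, Ccl7 and Ccl12 as higher and Ccl6 as lower. Without single arrays this count was 3 to 4, the 4 being without PBS replicate 3. The replicate block over all 9 arrays gave 7, 3 and 7 members for LPS against PBS, IL-4 against PBS and LPS against IL-4. With the dimmest 7070 rows left out, the median percentile of the members was 99.5 with LPS, against 99.6 over all rows, and 61.3 with PBS, against 74.2. Ranking among fewer, brighter rows lowers these percentiles by construction, so the shifts say nothing further about the members.

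Changes that turned sign were all uncalled. With array weights they were Ccl17 (-0.76), Nfkbib (-0.041) and Ccl4 (-0.031) for IL-4 against PBS, and Fos (-0.037) and Ccl6 (0.011) for LPS against IL-4. With quantile normalization they were Ccl3 (0.011) for IL-4 against PBS and Ccl25 (0.016) for LPS against IL-4. With array medians subtracted they were Zfp36l1 (0.047) for LPS against PBS, and Ccl25 (0.12), Elavl1 (0.10), Zfp36l1 (0.044) and Ccl6 (0.015) for LPS against IL-4. With 7 arrays they were Ccl17 (-0.60), Nfkbib (-0.047) and Ccl4 (-0.087) for IL-4 against PBS, and Fos (-0.092) and Ccl6 (0.065) for LPS against IL-4. Without single arrays, the ranges for IL-4 against PBS were -0.40 to 0.50 for Ccr7, -0.19 to 0.042 for Ccl3, -0.60 to 0.92 for Ccl17, -0.0066 to 0.13 for Zfp36l1, -0.047 to 0.17 for Nfkbib and -0.087 to 0.32 for Ccl4. For LPS against PBS they were -0.055 to 0.23 for Irf8 and -0.12 to 0.015 for Zfp36l1, and for LPS against IL-4 -0.092 to 0.38 for Fos and -0.27 to 0.065 for Ccl6. Blocking LPS and PBS arrays by replicate number changed the calls of Ccl6, Stat6 and Ackr1 and of no other named gene in that comparison.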
